A study of Mus musculus with 10 samples.

Results

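The translation initiation and elongation factors described here are 69 of the 55573 genes in the deposited count table. They are the genes whose symbol begins with Eif1 to Eif6 or with Eef1 or Eef2, without the Y-linked Eif2s3y and without entries named as pseudogenes. The choice rests on names alone and brings in kinases, inhibitors and methyltransferases that act on the factors. It also brings in Eif2c5, whose symbol is an older name of the Argonaute type and which had 0 counts. RNA was measured in neurons of the cerebral cortex from mouse pups of postnatal day 3, sorted by fluorescence for EYFP. The 5 Cdk7_KO mice were NexCre/+;Cdk7lox/lox, R26EYFP/+, and the 5 Ctrl mice were NexCre/+;Cdk7+/+, R26EYFP/+, with 1 sorted preparation from each mouse. Both genotypes thus carried NexCre, a Cre recombinase driven by the gene Neurod6 (Nex) once cortical and hippocampal excitatory neurons form, and the EYFP reporter that it switches on. Sorting by this reporter selects cells with a history of Cre, not cells with a proven loss of Cdk7.

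Translation begins when eIF2 brings the initiator tRNA to the small ribosomal subunit, on which eIF1, eIF1A, eIF3 and eIF5 also sit. The cap-binding complex eIF4F, made of the cap-binding eIF4E, the scaffold eIF4G and the RNA helicase eIF4A, recruits this assembly to the mRNA. eEF1A then delivers each aminoacyl-tRNA to the ribosome and eEF2 moves the ribosome along, and in many mature neurons the isoform eEF1A2 takes over from eEF1A1. Cdk7 phosphorylates RNA polymerase II as a part of TFIIH and also activates other cyclin-dependent kinases. The comparison asks how RNA levels of these factors stood in neurons sorted from Cdk7_KO and Ctrl mice.

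The stretches around the annotated start of 4 of these genes are shown because they encode the factors most central to the results below, the elongation factor pair eEF1A1 and eEF1A2, eEF2 and the helicase eIF4A1, and because Eef1a1, Eef2 and Eif4a1 varied together over the libraries. Each runs 5′ to 3′ on the strand of the gene, with 70 bases before the RefSeq start and 30 from it on (GRCm38.p6). Capitals mark a tract of C followed by at least 5 further pyrimidines on the sense strand that begins between 10 bases before and 30 bases after the start, and the letters TATAAA or TATATA.
Eef1a1: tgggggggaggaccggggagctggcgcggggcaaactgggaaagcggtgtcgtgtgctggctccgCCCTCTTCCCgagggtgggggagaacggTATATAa
Eef1a2: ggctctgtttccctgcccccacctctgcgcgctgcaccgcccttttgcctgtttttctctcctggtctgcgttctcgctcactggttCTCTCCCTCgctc
Eef2: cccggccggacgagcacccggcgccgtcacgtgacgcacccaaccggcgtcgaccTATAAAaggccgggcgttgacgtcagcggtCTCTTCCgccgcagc
Eif4a1: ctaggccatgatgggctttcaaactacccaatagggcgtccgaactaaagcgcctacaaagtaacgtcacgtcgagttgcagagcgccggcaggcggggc
They lie at chr9:78481695-78481794 on the minus strand, chr2:181156986-181157085 on the minus strand, chr10:81176561-81176660 on the plus strand and chr11:69672394-69672493 on the minus strand. With the annotated start counted as 0, the tract of Eef1a1 begins at -5 and its TATATA at 23, so that in this gene the TATA letters lie downstream of the annotated start. The tract of Eef1a2 begins at 17, and the TATAAA of Eef2 begins at -15 and its tract at 15. Neither motif was found in the window of Eif4a1. Of the 53 members with a RefSeq promoter, 23 (43.4%) held such a tract, beside 34% of 27025 genes in the same table. TATAAA or TATATA, which can overlap each other, stood on either strand of the 300-base window in 6 of the 53 (11.3%), beside 19.6% of all genes. These are matches of letters and not mapped starts or binding sites.

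Total counts per library lay between 23497621 and 31233466. Cdk7 averaged 5.16 ± 1.3 CPM (counts scaled to the library total) in Cdk7_KO and 15.7 ± 4.0 CPM in Ctrl (SD, n = 5 each), and no Cdk7_KO library reached the lowest Ctrl library (two-sided exact permutation p = 0.0079, the smallest that 252 assignments can give). Its log2 fold change was -1.54. The deleted gene itself was not called by edgeR over all genes (adjusted p = 0.161), while DESeq2 called it (adjusted p = 2.41e-08), so a lack of calls in edgeR does not show a lack of change. The markers of projection neurons summed to 1559 to 2144 CPM in Cdk7_KO and 1326 to 1956 CPM in Ctrl. Markers of other cells were lower in most Cdk7_KO libraries. Those of radial glia and astrocytes summed to 159 to 763 CPM in Cdk7_KO and 706 to 1308 CPM in Ctrl, those of endothelial cells and pericytes to 43.1 to 231 CPM in Cdk7_KO and 168 to 1034 CPM in Ctrl, and those of microglia and macrophages to 42.6 to 134 CPM in Cdk7_KO and 81.1 to 266 CPM in Ctrl. Of these lists, no marker was at 0 in every library, and in bulk samples fewer cells of a type and less RNA per cell cannot be told apart. Xist, the RNA of the inactive X chromosome, was at 0 to 0.405 CPM in the 5 libraries numbered 1 to 3 (3 Cdk7_KO and 2 Ctrl) and at 253 to 781 CPM in the 5 numbered 4 to 6 (2 Cdk7_KO and 3 Ctrl), so that sex and the numbered sets cannot be told apart.

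Relative to the counts of each library, translation factor RNA stood at nearly the same level in Cdk7_KO and Ctrl neurons. Counts scaled within each library cannot show a change in RNA per cell that most genes share. All 69 genes together took 2.16 ± 0.026% of counts in Cdk7_KO and 2.09 ± 0.083% in Ctrl (SD, n = 5 each), and the genotypes overlapped. Of the 69 genes, 67 had at least 1 count and 65 had enough counts to be tested. Eif4e1b and Eif2c5 had 0 counts in every library, and Eif4ebp3 and Eef1akmt3 were too low. edgeR's quasi-likelihood test called 0 of the 65 at an adjusted p under 0.05, where it called 0% of 15578 genes. DESeq2 also called 0 of the 65, against 3.24% of 17299 genes (0.225% higher and 3.02% lower in Cdk7_KO). At an unadjusted edgeR p under 0.05, 7 members were higher in Cdk7_KO, where 4.90% of all genes were, and 1 was lower, where 10.5% of all genes were. Of the 4575 genes with a mean of at least 50 CPM, 550 were higher and 160 lower in Cdk7_KO at that unadjusted p.

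The member with the smallest p was Eif5, with an adjusted p of 0.191 in edgeR and 0.162 in DESeq2. Its log2 fold change of Cdk7_KO over Ctrl was 0.16 (SE 0.053). In no member did the CPM of the genotypes separate without overlap, beside 0.610% of all genes in which Cdk7_KO lay above Ctrl and 2.41% in which it lay below. The intervals limit how large a difference in relative level could have gone unseen. In 60 of the 65 the 95% interval lay wholly within a 1.5-fold change in either direction, and in 50 within a 1.25-fold change. The exceptions at 1.5-fold were Eif2ak2, Eif3j2, Eif4ebp1, Eef1akmt4 and Eef2kmt, of which Eif2ak2, Eif4ebp1 and Eef2kmt also reached past 2-fold.

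The estimates leaned to one side. Of the 65 tested members, 55 (84.6%) had a positive log2 fold change, with a median of 0.08, beside 52.5% of all genes tested and a median of 0.01. Among genes with a mean of at least 50 CPM, 3560 of 4575 (77.8%) were positive, also with a median of 0.08. The lean was smaller in some alternatives. Scaling by library totals instead of TMM factors moved the median of all genes by -0.05, and 42 of the 65 members were then positive with a median of 0.03, as were 2744 of the 4575 abundant genes. With the index of other cells described below as a covariate, 51 members were positive with a median of 0.03, and this index does not overlap between the genotypes. CPM values here use library totals, so a gene whose mean CPM is slightly lower in Cdk7_KO, such as Eef1a2, can have a positive log2 fold change.

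**Figure D1:**
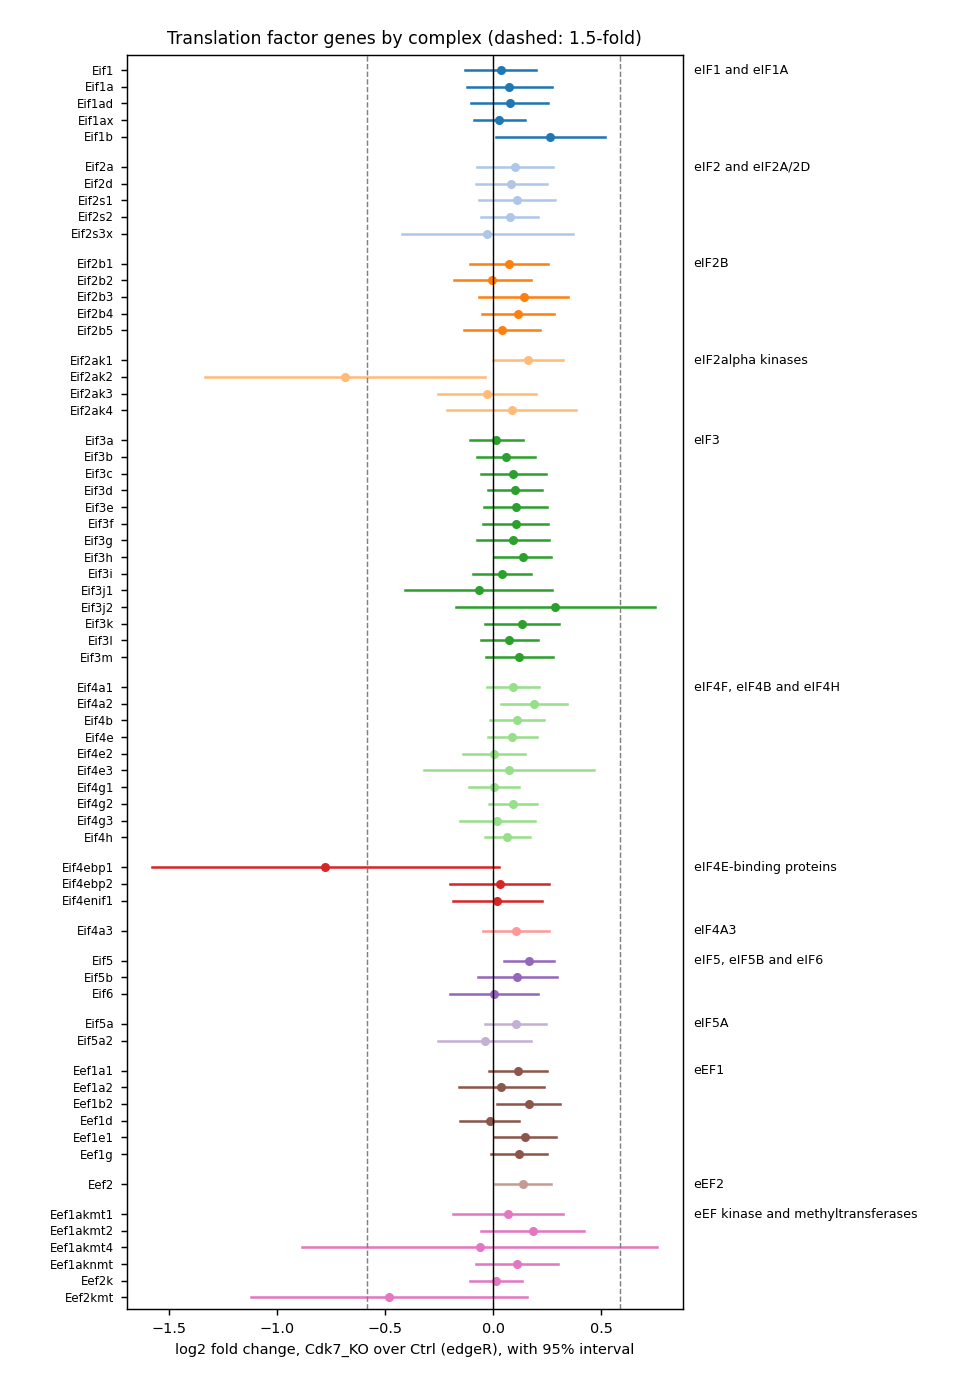
Log2 fold change of Cdk7_KO over Ctrl for the 65 tested genes, with 95% intervals from edgeR, grouped by complex; dashed lines mark a 1.5-fold change. With TMM scaling most points lie just right of 0 (55 of 65, but 42 with library totals), and the widest intervals belong to Eif2ak2, Eif4ebp1, Eef2kmt, Eef1akmt4 and Eif3j2.

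Among elongation factors, Eef1a1, the general carrier of aminoacyl-tRNA, was the most abundant member. Its gene lies at chr9:78478449-78489151 (GENCODE M21, GRCm38). It had 5957, 5986, 5586, 5809 and 5823 CPM in Cdk7_KO libraries 1 to 5, against 5732, 6151, 5025, 5543 and 5489.6 CPM in Ctrl libraries 1, 3, 4, 5 and 6. The Ctrl libraries spread more widely and held both the highest value, in Ctrl 3, and the lowest, in Ctrl 4. The log2 fold change was 0.11 (SE 0.061, edgeR adjusted p = 0.401). Several processed copies of Eef1a1 exist in the mouse genome, so the counting may have divided its reads among them.

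Eef1a2, the isoform of mature neurons and muscle (chr2:181147653-181157014), was present but far lower. Its CPM was 151, 195, 213, 158 and 163 in Cdk7_KO, against 181, 198, 172, 167 and 169 in Ctrl. The spread of Cdk7_KO included every Ctrl value, with replicates 2 and 3 high and the other 3 low. Per kilobase of exon it made up 3.49 ± 0.57% of Eef1a1 plus Eef1a2 in Cdk7_KO and 3.66 ± 0.18% in Ctrl (SD, n = 5 each), or 2.54% and 2.66% where the longest transcript set the length. Eef1a2 had a log2 fold change of 0.04 (SE 0.090, edgeR adjusted p = 0.891). Nearly all eEF1A RNA was thus Eef1a1 in both genotypes.

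The exchange factor subunits that reload eEF1A with GTP were measured as Eef1b2, Eef1d and Eef1g. Eef1b2 had 304, 314, 322, 313 and 310.1 CPM in Cdk7_KO, against 305, 326, 266, 270.5 and 278 CPM in Ctrl. Ctrl 4, 5 and 6 lay below all Cdk7_KO libraries and Ctrl 3 above them, and the log2 fold change was 0.16 (SE 0.067, edgeR adjusted p = 0.268). Eef1g averaged 549 ± 11.2 CPM in Cdk7_KO and 524 ± 41.1 CPM in Ctrl (SD, n = 5 each). Eef1d averaged 108 ± 4.16 CPM in Cdk7_KO and 113 ± 6.65 CPM in Ctrl, and its log2 fold change of -0.02 was the only negative one in the eEF1 group, where Eef1a2 was also negative when scaled by library totals. Eef1e1, which despite its name is a scaffold protein of the multi-tRNA synthetase complex, averaged 41.3 ± 1.8 CPM in Cdk7_KO and 38.7 ± 1.06 CPM in Ctrl, with an edgeR adjusted p of 0.311.

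Eef2, the translocase (chr10:81176631-81182498), was the second most abundant member both in CPM and per kilobase. It had 3173, 3178, 3083, 3239 and 3241 CPM in Cdk7_KO, against 3015, 3335, 2785, 2952 and 2918 CPM in Ctrl. As with Eef1a1, Ctrl 3 was the highest library and Ctrl 4 the lowest. The log2 fold change was 0.14 (SE 0.059, edgeR adjusted p = 0.291). Eef2k, the calcium-dependent kinase that inhibits eEF2, averaged 88.5 ± 4.96 CPM in Cdk7_KO and 90.9 ± 5.61 CPM in Ctrl, with a log2 fold change of 0.01.

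The methyltransferases of the elongation factors were weakly expressed. Eef1akmt1, the most abundant of them per kilobase, averaged 19.4 ± 1.43 CPM in Cdk7_KO and 19.2 ± 2.32 CPM in Ctrl. Eef1akmt2 averaged 19.9 ± 1.75 CPM in Cdk7_KO and 18.2 ± 1.59 CPM in Ctrl, with an edgeR adjusted p of 0.452. Eef2kmt, which methylates eEF2, was at 2.7, 2.74, 1.54, 1.51 and 2.02 CPM in Cdk7_KO, against 2.81, 4.35, 3.15, 3.36 and 1.59 CPM in Ctrl. All Ctrl libraries but replicate 6 lay above all of Cdk7_KO, the log2 fold change was -0.48 (SE 0.29), and the edgeR adjusted p was 0.462. With the index of other cells described below as a covariate, the log2 fold change of Eef2kmt was -0.05. Because this index does not overlap between the genotypes, the share of each in the difference cannot be told apart. Eef1aknmt averaged 35.4 ± 3.16 CPM in Cdk7_KO and 34.0 ± 1.97 CPM in Ctrl. Eef1akmt4 averaged 1.29 ± 0.40 CPM in Cdk7_KO and 1.39 ± 0.74 CPM in Ctrl, and Eef1akmt3 stayed under 0.2 CPM in every library.

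**Figure D2:**
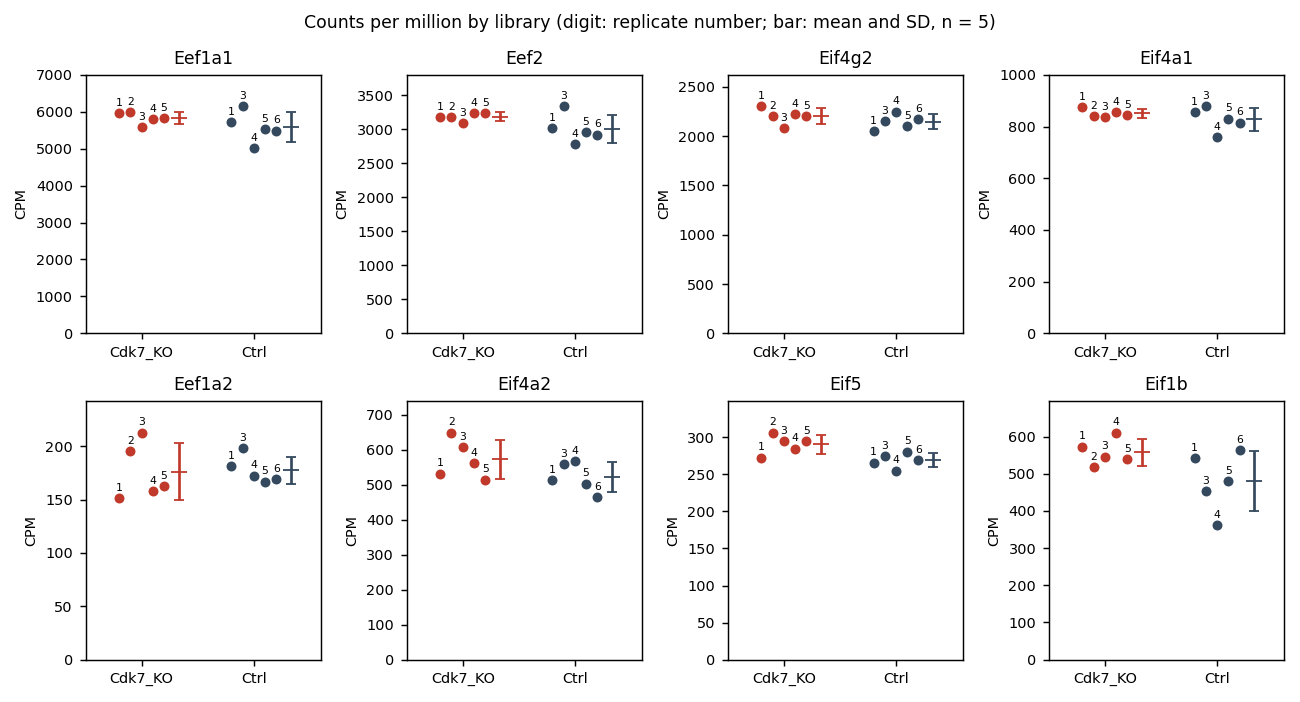
CPM of 8 members in each library (Cdk7_KO left, Ctrl right; digits are replicate numbers, bars the mean and SD of 5 libraries). In Eef1a1, Eef2 and Eif4a1, Ctrl 3 is the highest library and Ctrl 4 the lowest, and in each panel the genotypes overlap.

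Start-codon selection rests on eIF1 and eIF1A. Eif1b, a close relative of Eif1 (chr9:120492232-120495330), was the third most abundant member per kilobase of exon, at 496 ± 31.7 CPM per kilobase in Cdk7_KO and 427 ± 71.2 in Ctrl, while Eif1 was at 142 ± 14.3 in Cdk7_KO and 144 ± 12.8 in Ctrl. In CPM, Eif1b stood at 573, 518, 546, 611 and 541 in Cdk7_KO, against 543, 454, 362, 481 and 564 in Ctrl. Ctrl 4 was far below the rest, and Ctrl 1 and Ctrl 6 lay within the range of Cdk7_KO. The log2 fold change of Eif1b was 0.26 (SE 0.12, edgeR adjusted p = 0.304). The X-linked Eif1ax averaged 218 ± 4.72 CPM in Cdk7_KO and 222 ± 8.16 CPM in Ctrl, and its autosomal relative Eif1a averaged 37.9 ± 4.04 CPM and 37.4 ± 2.12 CPM in Cdk7_KO and Ctrl. Eif1ad, a protein with an eIF1A domain, averaged 28.3 ± 2.21 CPM in Cdk7_KO and 27.8 ± 2.12 CPM in Ctrl.

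The subunits of eIF2, the GTPase that carries the initiator tRNA, were Eif2s1 (alpha), Eif2s2 (beta) and Eif2s3x (gamma). Eif2s1 averaged 69.5 ± 7.15 CPM in Cdk7_KO and 66.8 ± 3.0 CPM in Ctrl. Eif2s2 averaged 142 ± 4.05 CPM in Cdk7_KO and 139 ± 8.11 CPM in Ctrl. Eif2s3x, a gene of the X chromosome known to escape X inactivation in mice, followed the sets of libraries and not the genotype. It was at 154, 134, 130.5, 206 and 204 CPM in Cdk7_KO, against 125, 141, 204, 202 and 209 CPM in Ctrl. All 5 libraries with high Xist had 202 to 209 CPM and all 5 with low Xist had 125 to 154 CPM. The pooled log2 fold change of Eif2s3x was -0.03 (SE 0.18), and within the sets it was 0.09 in numbers 1 to 3 and 0.10 in numbers 4 to 6. Eif1ax, also on the X chromosome, showed no such split, at 210.4 to 227 CPM in numbers 1 to 3 and 208 to 226 CPM in numbers 4 to 6. Eif2a and Eif2d, which can bring tRNA to the ribosome without eIF2, had log2 fold changes of 0.10 and 0.08.

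eIF2B recharges eIF2 with GTP, and its 5 subunits are encoded by Eif2b1 to Eif2b5. Eif2b5, the catalytic subunit and the highest of the 5 per kilobase, averaged 75.4 ± 6.34 CPM in Cdk7_KO and 76.1 ± 4.35 CPM in Ctrl. The smallest p in this group belonged to Eif2b3, at 25.6 ± 1.87 CPM in Cdk7_KO and 24.1 ± 1.92 CPM in Ctrl (edgeR adjusted p = 0.507). Eif2b4 averaged 46.7 ± 2.56 CPM in Cdk7_KO and 44.9 ± 5.2 CPM in Ctrl. Of the 5 subunits, 4 had positive estimates (3 when scaled by library totals) and Eif2b2 a negative one, between -0.00 and 0.14 on the log2 scale.

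Phosphorylation of eIF2 alpha by its 4 kinases lowers initiation under stress. Eif2ak1, the kinase regulated by heme, was the most abundant of the 4 per kilobase, with 81.8, 79.6, 78.6, 88.4 and 96.5 CPM in Cdk7_KO, against 79.0, 79.1, 77.4, 77.5 and 81.2 CPM in Ctrl. Cdk7_KO 1, 4 and 5 lay above every Ctrl library and Cdk7_KO 2 and 3 within the Ctrl range, with a log2 fold change of 0.16 (SE 0.074, edgeR adjusted p = 0.327). Eif2ak2, the double-stranded RNA sensor PKR, was at 3.26, 2.62, 2.55, 0.967 and 2.26 CPM in Cdk7_KO, against 4.38, 3.55, 5.00, 4.03 and 2.48 CPM in Ctrl. All Ctrl libraries but replicate 6 lay above every Cdk7_KO library.

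Eif2ak2 had a log2 fold change of -0.68 (SE 0.30) and an edgeR adjusted p of 0.298. An index of the markers of other cells, the mean of their scaled list scores, was at most 0.186 in Cdk7_KO and at least 0.346 in Ctrl. With that index as a covariate the log2 fold change of Eif2ak2 was 0.02, and because the index does not overlap between the genotypes the share of each in the difference cannot be told apart. Eif2ak3, the kinase PERK of the endoplasmic reticulum, averaged 29.6 ± 1.9 CPM in Cdk7_KO and 31.3 ± 4.95 CPM in Ctrl. Eif2ak4, the amino acid sensor GCN2, averaged 22.6 ± 5.06 CPM in Cdk7_KO and 22.1 ± 2.26 CPM in Ctrl.

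eIF3, the large scaffold on the small ribosomal subunit, was represented by 14 genes, of which 13 had positive estimates (11 when scaled by library totals) and 0 were called by edgeR. The median log2 fold change over the 14 was 0.10. Eif3h was the highest per kilobase and had the smallest p. It was at 256, 227, 232, 226 and 255 CPM in Cdk7_KO, against 224, 242, 218, 219 and 226 CPM in Ctrl. Only Cdk7_KO 1 and 5 lay above every Ctrl library, and the log2 fold change was 0.14 (SE 0.061, edgeR adjusted p = 0.315). Eif3d, a subunit that can itself bind the cap, averaged 154 ± 4.16 CPM in Cdk7_KO and 149 ± 7.79 CPM in Ctrl. Per kilobase of the union of exons, Eif3h averaged 144 and Eif3c 104 CPM per kilobase over the 10 libraries, against 24.2 in Eif3e. The size of this gap depends on the length used. The union of exons is 1612 bases in Eif3h, 3511 in Eif3c and 6719 in Eif3e. The longest transcripts have 1295, 3383 and 4123 bases.

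The eIF3j subunit has near-identical genes, Eif3j1 and Eif3j2, and reads may have been divided between them in ways the counts do not show. Their summed level was 46.8 ± 4.1 CPM in Cdk7_KO and 47.7 ± 4.9 CPM in Ctrl. Eif3j2 made up 40.3%, 18.8%, 25.1%, 36.5% and 18.5% of the sum in Cdk7_KO, against 20.6%, 19.4%, 35.4%, 21.9% and 19.7% in Ctrl. The share was thus high in 2 Cdk7_KO libraries and 1 Ctrl library and near 20% in most others. The sum was lowest in the libraries with the high share. It was 44.2 CPM in Cdk7_KO 1, 41.9 in Cdk7_KO 4 and 40.7 in Ctrl 4, against 44.9 to 52.8 CPM in the others. The log2 fold changes of 0.29 for Eif3j2 and -0.07 for Eif3j1 are therefore uncertain.

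In the cap-binding complex, the 10 tested genes all had estimates above 0, up to 0.19 on the log2 scale, but only 7 of them when scaled by library totals (not Eif4e2, Eif4g1 and Eif4g3). Eif4a1, the main helicase (chr11:69666936-69672423), was at 876, 839, 835, 857 and 846 CPM in Cdk7_KO, against 855, 878, 759, 831 and 815 CPM in Ctrl. Only Ctrl 4 stood apart from the rest. The log2 fold change of Eif4a1 was 0.09 (SE 0.056, edgeR adjusted p = 0.467). Its paralog Eif4a2, which is enriched in brain, was at 532, 649, 607, 561 and 514 CPM in Cdk7_KO, against 513, 559, 567, 503 and 464 CPM in Ctrl. Cdk7_KO 2 and 3 lay above every Ctrl library and the other 3 within their range. Eif4a2 had a log2 fold change of 0.19 (SE 0.071, edgeR adjusted p = 0.233). Per kilobase of exon it made up 35.3 ± 2.5% of the pair in Cdk7_KO and 33.8 ± 2.4% in Ctrl. Where the longest transcript set the length, it made up 44.0% and 42.4%.

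Eif4g2, a relative of eIF4G that lacks the eIF4E-binding part and works outside the usual cap route, was the highest gene of this complex per kilobase and the third highest member in CPM. It was at 2303, 2207, 2081, 2227 and 2203 CPM in Cdk7_KO, against 2053, 2156, 2249, 2101 and 2174 CPM in Ctrl. The ranges overlapped over most of their length, with a log2 fold change of 0.09 (SE 0.050, edgeR adjusted p = 0.409). Over the 10 libraries Eif4g2 averaged 214 CPM per kilobase, against 70.3 for Eif4g1 and 28.9 for Eif4g3, the eIF4E-binding scaffolds. The cap-binding protein Eif4e averaged 138 ± 1.39 CPM in Cdk7_KO and 135 ± 3.26 CPM in Ctrl. The helicase cofactor Eif4b averaged 442 ± 26.7 CPM in Cdk7_KO and 426 ± 11.5 CPM in Ctrl, and Eif4h averaged 377 ± 8.04 CPM and 374 ± 11.1 CPM in Cdk7_KO and Ctrl.

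The repressors that hold eIF4E off the scaffold were present mainly as Eif4ebp2, the form known as the main one in brain. Eif4ebp2 averaged 279 ± 38.5 CPM in Cdk7_KO and 284 ± 23.1 CPM in Ctrl, with a log2 fold change of 0.03 (SE 0.10). Eif4ebp1 was at 1.39, 0.86, 1.09, 1.68 and 1.77 CPM in Cdk7_KO, against 1.62, 3.49, 1.05, 3.43 and 2.48 CPM in Ctrl. Ctrl 3, 5 and 6 lay above all Cdk7_KO libraries and Ctrl 1 and 4 among them. Its log2 fold change was the most negative of the members, at -0.78 (SE 0.37), with an edgeR adjusted p of 0.341. With the index of other cells as a covariate, the log2 fold change of Eif4ebp1 was -0.65, unlike those of Eif2ak2 and Eef2kmt, which came close to 0. Eif4ebp3 was at 0 to 0.0811 CPM in Cdk7_KO and 0 to 0.928 CPM in Ctrl and was not tested. Eif4enif1, which carries eIF4E into the nucleus, averaged 78.4 ± 7.37 CPM in Cdk7_KO and 80.2 ± 7.76 CPM in Ctrl.

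**Figure D3:**
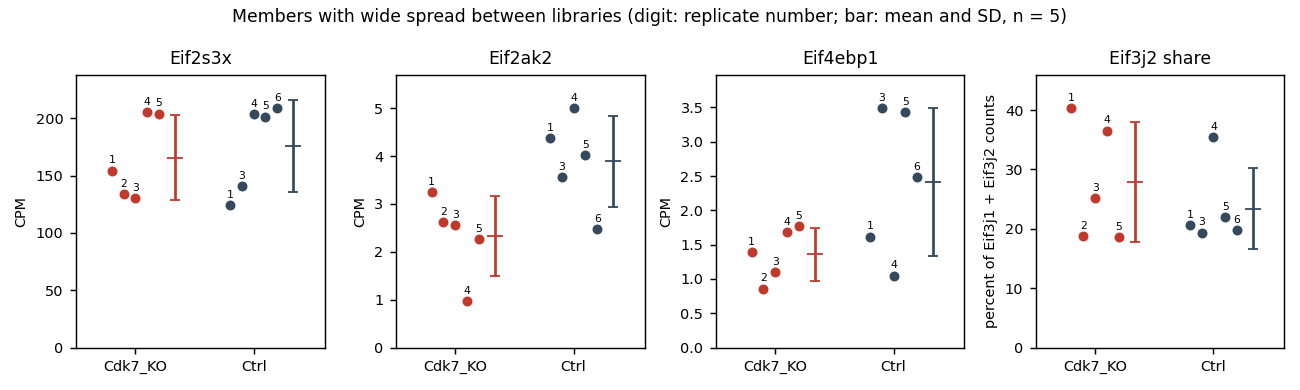
CPM of Eif2s3x, Eif2ak2 and Eif4ebp1, and the percent of Eif3j1 plus Eif3j2 counts given to Eif3j2, in each library (Cdk7_KO left, Ctrl right; digits are replicate numbers, bars the mean and SD of 5 libraries). Eif2s3x splits by replicate number in both genotypes, at 125 to 154 CPM in numbers 1 to 3 and 202 to 209 CPM in numbers 4 to 6.

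Later steps of initiation showed the member with the smallest p. Eif5, which triggers GTP hydrolysis by eIF2 at the start codon (chr12:111538016-111546752), was at 273, 306, 295, 285 and 295 CPM in Cdk7_KO, against 266, 274, 255, 281 and 269.8 CPM in Ctrl. Cdk7_KO 2 to 5 lay above every Ctrl library and Cdk7_KO 1 among them. Eif5b, the GTPase of subunit joining, averaged 150.0 ± 12 CPM in Cdk7_KO and 144 ± 11.6 CPM in Ctrl. Eif6, which keeps the large subunit apart until it is needed, averaged 87.3 ± 8.12 CPM in Cdk7_KO and 90.5 ± 9.48 CPM in Ctrl. Eif5a, the hypusine-bearing factor that helps ribosomes through difficult peptide bonds, averaged 425 ± 12.6 CPM in Cdk7_KO and 409.7 ± 34.4 CPM in Ctrl, and its paralog Eif5a2 averaged 17.0 ± 1.13 CPM and 18.1 ± 1.38 CPM in Cdk7_KO and Ctrl. Eif4a3, an eIF4A relative of the exon junction complex, averaged 119 ± 9.3 CPM in Cdk7_KO and 114 ± 7.71 CPM in Ctrl, with an edgeR adjusted p of 0.507.

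Ordered per kilobase of exon over the 10 libraries, Eef1a1 came first at 2290.5 CPM per kilobase, followed by Eef2 at 930.1 and Eif1b at 462. After them came Eif4g2 at 214, Eef1g at 206, Eif4a1 at 194 and Eif5a at 176. The ranges of Eef1a1, Eef2 and Eif1b did not meet in any library, while those of Eif4g2 and Eef1g overlapped. At the low end, Eif2ak2 averaged 0.608 CPM per kilobase and Eif4ebp3 0.229.

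**Figure D4:**
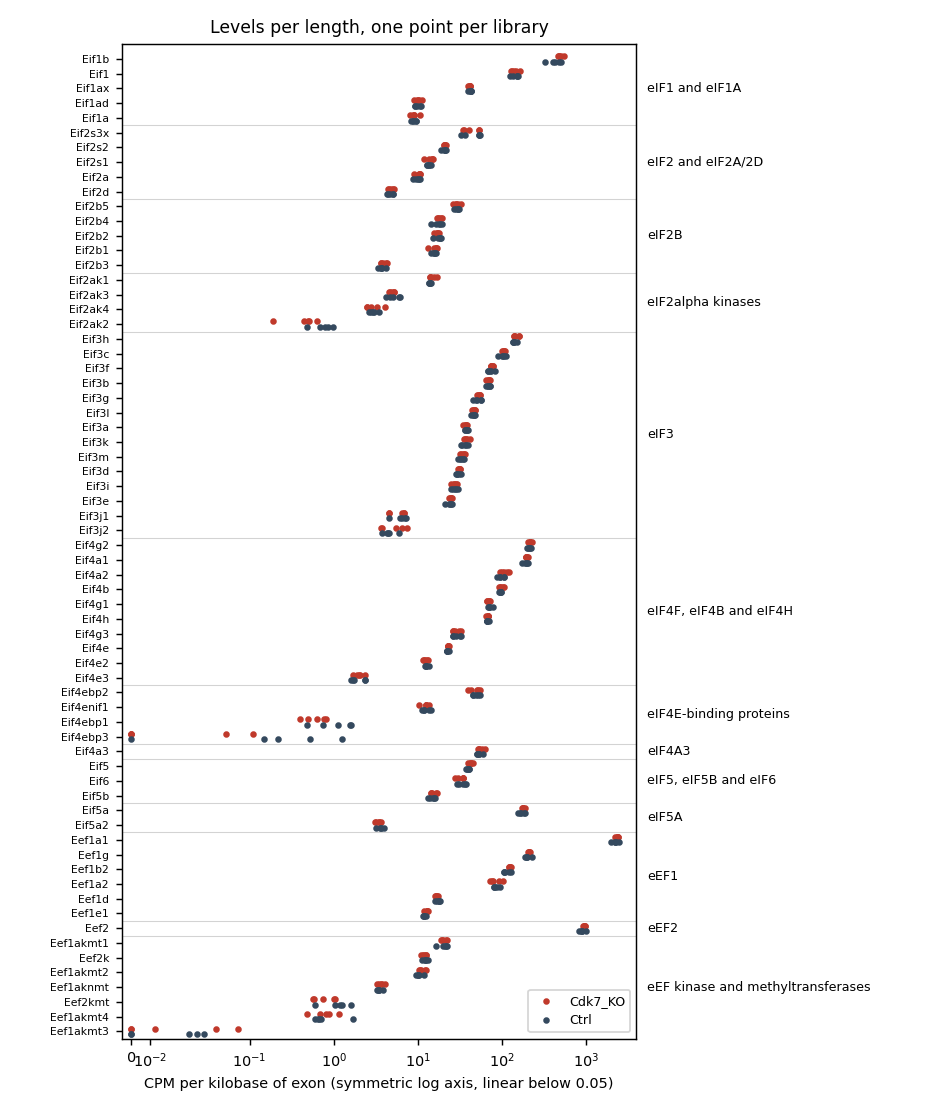
CPM per kilobase of exon in each of the 10 libraries for the 67 genes with counts, grouped by complex and ordered by mean level within it, on a symmetric log axis; Cdk7_KO points stand above Ctrl points in each row. Eef1a1 (mean 2290.5), Eef2 (930.1) and Eif1b (462) lie farthest right, and within a gene the 2 genotypes nearly coincide except in weakly expressed genes.

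The genes whose level followed that of Eef1a1 most closely over the 10 libraries included ribosomal protein genes. By Pearson's correlation of TMM-scaled log2 CPM, the highest of all genes tested included Rplp0 at 0.989, Rpsa at 0.977, Rpl27a at 0.975 and Rpl23a at 0.968. Among members the highest were Eif4a1 at 0.962 and Eef2 at 0.956, then Eif3f at 0.920, Eif3c at 0.910 and Eef1g at 0.904. These values come from the same 10 libraries and scaling factors and are a description. With TMM scaling, the median deviation of all tested members from their own means was taken on the log2 scale. It was 0.11 in Cdk7_KO 4, the highest, and -0.12 in Ctrl 4 and -0.09 in Ctrl 5, the lowest. Cdk7_KO 4 also had the smallest TMM factor, 0.943, and Ctrl 4 and Ctrl 5 the largest, 1.045 and 1.035. A smaller factor raises the scaled level of every gene in a library, and its part in these deviations was not tested.

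With TMM scaling, the positive estimates were larger in the libraries numbered 4 to 6. The median log2 fold change of the members was 0.14 there (all genes -0.02), and 0.0036 in numbers 1 to 3 (all genes 0.02). Eef1b2 had 0.29 in numbers 4 to 6 and 0.00 in numbers 1 to 3, Eef2 had 0.26 and 0.00, and Eef1a1 had 0.21 and -0.01. A test of the difference between the sets, added after these values had been seen, gave the 65 members a median of 0.12. The median over all genes tested was -0.04. This test called 0 of 15578 genes and 0 members in edgeR. Of the members 6 had an unadjusted p under 0.05, where 7.34% of all genes did, and the smallest adjusted p of a member was 0.665. Many members varied together, and Cdk7_KO 4, Ctrl 4 and Ctrl 5, which had the most extreme median deviations, all belong to numbers 4 to 6. In the main fit, the TMM factors in numbers 4 to 6 were 0.943 and 0.975 in Cdk7_KO against 1.045, 1.035 and 0.990 in Ctrl. In numbers 1 to 3 they were 0.989, 0.993 and 1.011 in Cdk7_KO against 1.005 and 1.018 in Ctrl. The sets were not compared with library totals. Each set has only 5 libraries, and sex, preparation, scaling and the share of other cells were not tested apart.

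**Figure D5:**
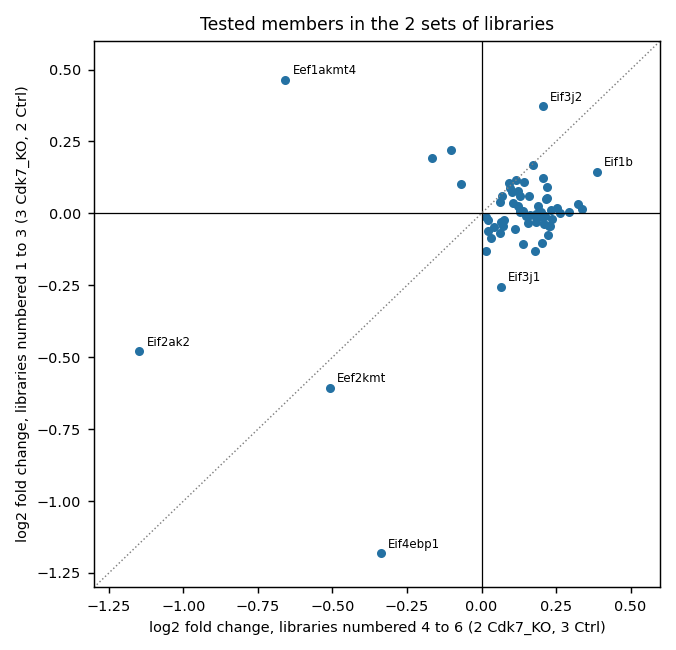
Log2 fold change of Cdk7_KO over Ctrl in libraries numbered 4 to 6 (x axis) and numbers 1 to 3 (y axis) for the 65 tested genes; the dotted line marks equal values. With TMM scaling, most points lie to the right of 0, with a median of 0.14 on the x axis and 0.0036 on the y axis.

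Further translation genes were listed under 58 symbols (poly(A)-binding proteins, release and recycling factors, mTOR signalling, hypusine and diphthamide enzymes and other regulators). Gcn1 and Gcn1l1 among them are names of the same gene, which the table holds as Gcn1l1. The table thus held 57 genes of the list, and all 57 were tested. edgeR and DESeq2 called 0 of them. The estimates were positive for 37 (26 when scaled by library totals) with a median log2 fold change of 0.04. At an unadjusted edgeR p under 0.05, 6 were higher and 1 lower in Cdk7_KO, beside 4.90% and 10.5% of all genes. Of the 4575 genes with a mean of at least 50 CPM, 550 were higher and 160 lower. Cdk7_KO lay wholly above Ctrl in 3.51% of the 57, beside 0.610% of all genes and 1.16% of the 4575. The smallest p belonged to Paip2b, an inhibitor of the poly(A)-binding protein, at 154 ± 5.37 CPM in Cdk7_KO and 139.7 ± 6.41 CPM in Ctrl (SD, n = 5 each). Every Cdk7_KO library lay above every Ctrl library in Paip2b, and its edgeR adjusted p was 0.180. Next came Bzw2, an eIF5 mimic, and Gtpbp1, with log2 fold changes of 0.18 and 0.19. In Metap2 the genotypes did not overlap either; it is a methionine aminopeptidase and was at 187 ± 2.51 CPM in Cdk7_KO and 178 ± 4.34 CPM in Ctrl (edgeR adjusted p = 0.241). Then followed Mcts1, a reinitiation factor, and Cyfip2, a partner of FMRP, with log2 fold changes of 0.20 and 0.14. The lower gene was Cyfip1, the paralog of Cyfip2, at 55.9 ± 11.9 CPM in Cdk7_KO and 69.9 ± 3.77 CPM in Ctrl, with a log2 fold change of -0.27 and an edgeR adjusted p of 0.297; it was named after its values were seen.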

How the data were processed

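Raw counts per gene, as whole numbers, were deposited for 10 libraries of polyA RNA made with a directional kit, per the labels' protocols. STAR, Salmon and the build GRCm38 are named per the submitters' processing notes; the sources used here give no versions, roles or strand setting, so reads from genes that overlap on opposite strands may be mixed. Columns were assigned to samples by column name. The libraries differed by more than sampling noise, with a smallest chi-square per gene of 11.3.

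Tests used edgeR 4.0.16 in R 4.3.3 (filterByExpr by group with a minimum count of 10, TMM, estimateDisp, glmQLFit, glmQLFTest), a model with genotype as its single term, and p-values adjusted by Benjamini and Hochberg's method over 15578 genes, called at 0.05. Each log2 fold change sets Cdk7_KO over Ctrl, with a standard error derived from the F statistic. CPM uses library totals, but the correlations, the median deviations and the index of other cells use TMM-scaled log2 CPM. Lengths are the union of exons in GENCODE M21, which lists 55394 of the IDs and lacks 179. DESeq2 1.42.0 and limma 3.58.1 (voom) were alternatives, beside other scalings and filters, leaving out each library, a replicate block, covariates and the number sets. The test was tried on simulated data.

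Promoters are from RefSeq (GRCm38.p6), where 53 of 69 members matched. The rule for named genes took Cdk7, the 4 genes that mark the module, any call, Eif2s3x, the highest member per kilobase and up to 2 members with the smallest p in each factor group, 6 other translation genes and the 5 genes most like Eef1a1, of which 1 is not reported here; further members are given to complete a complex. The members and all lists were chosen with earlier results of these data known. Intervals cover the spread between mice and counting error in these libraries.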

Additional observations from a re-analysis of the deposited data

Results flagged for a closer look

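Of 72 groups of 5 libraries examined, 3 held a library whose gap to the nearest other one was more than 0.71 of the group's range, the limit that chance passes in about 1 group in 20. Eef1e1 was lowest in Cdk7_KO replicate 3, at 38.26 CPM, where the next lowest Cdk7_KO library had 41.5 CPM. The summed level of all 69 members was also lowest in Cdk7_KO replicate 3, at 21165 CPM, where the next had 21610 CPM. Eif3j2 made up 35.38% of the Eif3j1 and Eif3j2 counts in Ctrl replicate 4, where the next highest Ctrl library had 21.9%. Their causes were not tested.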

How the results depend on the processing

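Under all 22 alternatives, 0 members were called. The smallest adjusted p of any member was 0.118, for Eif5 with the level of Xist as a covariate. The number of all genes called was 0 in the main edgeR test, 561 in DESeq2, 1 without a filter on low counts, 746 with Xist as a covariate and 0 to 5 when 1 library was left out (5 without Cdk7_KO replicate 1). The replicate numbers were not taken to pair the libraries, since not every same-numbered correlation of deviations was over 0.1 (-0.10, 0.31, 0.14 and 0.17, where differently numbered libraries gave -0.35 to 0.33). With the replicate block, on the 8 libraries numbered 1, 3, 4 and 5, 5 genes were called; the same 8 libraries without it, added after the data were seen, gave 0. The members' median log2 fold change was 0.031 with library totals, 0.033 with the index of other cells as a covariate, 0.0036 in numbers 1 to 3, 0.14 in numbers 4 to 6 and 0.055 to 0.097 when 1 library was left out.

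Of 682 values of 31 named members, 650 kept their sign and 32, in 12 members, changed it. None of these members was called. In numbers 1 to 3 alone, the log2 fold changes with the other sign were -0.0091 (Eef1a1), -0.011 (Eef1a2), -0.10 (Eif2b5), -0.0094 (Eif2s2), -0.0011 (Eif3d), -0.013 (Eif4a1), -0.037 (Eif5a) and 0.088 (Eif2s3x). In numbers 4 to 6 alone they were 0.096 (Eif2s3x) and 0.016 (Eif5a2). With library totals they were -0.012 (Eef1a2), -0.015 (Eif2b5) and -0.026 (Eif4ebp2). With the replicate block they were -0.012 (Eef1a2) and 0.12 (Eif2s3x), and on the same 8 libraries -0.0062 and 0.13. With Xist as a covariate they were -0.0026 (Eef1a2) and 0.12 (Eif2s3x), and with the index of other cells 0.018 (Eif2ak2), -0.088 (Eif2b5) and -0.15 (Eif4ebp2). With 1 library left out, the values ran from -0.032 to 0.087 (Eef1a2), -0.0055 to 0.12 (Eef1akmt1), -0.0096 to 0.081 (Eif2b5), -0.052 to 0.10 (Eif4ebp2) and -0.15 to 0.057 (Eif2s3x, above 0 in 6 of the 10 cases). The causes were not tested. The widest 95% intervals belonged to Eif2ak2, Eif4ebp1, Eef2kmt and Eef1akmt4, all at low CPM, and the part of depth in them was not tested.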
